A study of Mus musculus with 20 samples.

Results

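The lymph nodes that drain the mouse bowel were placed in the order of the segment each one serves, and each gene was asked whether its level followed that order or changed at 1 end of it. The members were 16 gut libraries of the 20 in the series: 4 each from duodenal (score 1), jejunal (score 2), ileal (score 3) and ceco-colonic nodes (score 4). The other 4 libraries came from inguinal nodes, which drain skin; they have no score and are given for comparison of levels only. Every library was bulk polyA RNA of a whole node from a Rag1-/- mouse of the strain B6.129S7-Rag1tm1Mom/J, aged 9 weeks and with no treatment named. Rag1 deficiency removes mature T and B cells in all groups alike, so the nodes hold stromal, endothelial, myeloid and innate lymphoid cells, and there is no Rag1-sufficient group. Whether the 4 libraries at a site came from separate mice or from pooled nodes is not given, so p-values measure the spread between libraries.

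Lymph nodes are seeded along the body axis, and their fibroblastic stroma arises from local mesenchyme. Mesenchymal cells keep a positional record in their Hox genes, a family of homeobox transcription factors in 4 chromosomal clusters. Genes at the 3' end of a cluster (low paralog numbers) act towards the head and genes at the 5' end (high paralog numbers) act towards the tail. Gut segments also differ in what reaches their node through the lymph: dietary lipid and vitamin A are absorbed mainly in the small intestine, and bacteria are densest in the cecum and colon.

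The libraries carried the genes of lymph nodes. Across the 16 gut libraries the T-zone chemokine gene Ccl21a ranged from 1154 to 3955 CPM (counts per M counts, scaled between libraries), the lymphatic endothelial regulator Prox1 from 29.2 to 94.1 CPM and the myeloid receptor Csf1r from 554 to 1088 CPM. The T cell gene Cd3e stayed between 0.178 and 0.659 CPM. Total estimated counts ran from 171.1 to 304.6 M per gut library. Tissue around the nodes was not evenly carried along. The summed level of 18 pancreatic acinar genes was 48990 and 27170 CPM in the first and second duodenal libraries, 16.02 and 28.6 CPM in the other 2 duodenal libraries, 139 CPM in jejunal library 1 and at most 13.8 CPM in the other 11 gut libraries. Smooth muscle genes summed to 1605 and 1659 CPM in duodenal libraries 2 and 3, against 462 to 653 CPM in duodenal libraries 1 and 4 and 496 to 627 CPM at the other gut positions. Glial and neuronal genes were likewise highest in duodenal libraries 2 and 3, at 59.7 and 60.9 CPM. Adipocyte genes summed to 308 to 875 CPM in duodenal, 1109 to 3506 CPM in jejunal, 1251 to 2065 CPM in ileal and 325 to 718 CPM in ceco-colonic libraries. Many results that leaving out a pair of duodenal libraries changes carry the value without them, but not all do. Steps of single genes come from the fit of all 16 gut libraries. Jejunal over duodenal calls numbered 503 in that fit and 66 without duodenal libraries 1 and 2.

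**Figure D1:**
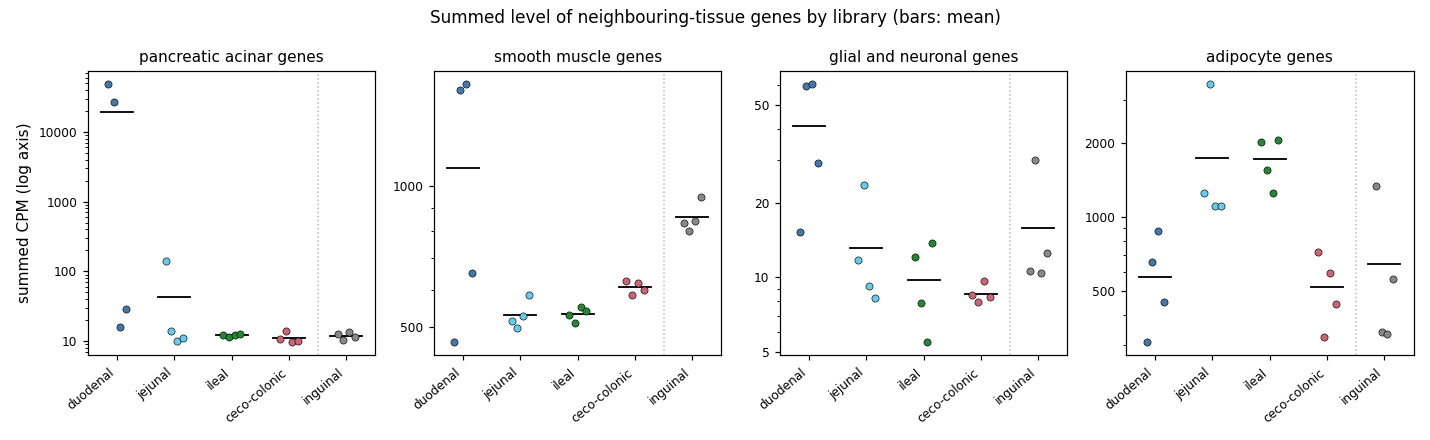
Summed CPM of the genes of 4 neighbouring tissues in each library (log axis), by draining site; points are libraries and bars are means. Duodenal libraries 1 and 2 stand apart in pancreatic genes, duodenal libraries 2 and 3 in smooth muscle and glial genes, and adipocyte genes are highest in jejunal and ileal libraries.

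A slope along the gut was called for 4326 of 28943 genes tested (14.9%): 2260 rose towards the colon (7.81%) and 2066 fell (7.14%). The balance turned on single libraries. Of the called genes 52.2% rose, but 50.5% without duodenal library 3 and 43.6% to 48.2% without any other single library. The slope is the log2 change per position, from a quasi-likelihood fit in edgeR, with p-values adjusted by Benjamini-Hochberg and a threshold of 0.05. Most slopes were shallow, with a median size of 0.185 among called genes, and 353 of the rising and 804 of the falling genes changed at least 2-fold over the whole order. The 3 single steps differed in how many genes they carried. Ceco-colonic nodes differed from ileal nodes in 3220 genes (11.1%; 1397 higher, 4.83%, and 1823 lower, 6.3%). Jejunal nodes differed from duodenal nodes in 503 genes (1.74%; 276 higher, 0.954%, and 227 lower, 0.784%). Ileal nodes differed from jejunal nodes in 11 genes (0.038%; 8 higher, 0.0276%, and 3 lower, 0.0104%). The last count was 2 without jejunal library 1 or ileal library 1, 4 to 7 without jejunal library 3 or 4, ileal library 2, 3 or 4, or ceco-colonic library 4, and 17 or 18 without jejunal library 2 or duodenal library 1. Without the pancreas-rich duodenal libraries 1 and 2 the trend was called in 2669 genes, and the share that rose was 39.7% in place of 52.2%; the jejunal over duodenal count was then 66. That count also rested on single libraries: it was 40 or 922 without duodenal library 2 or 3, 84, 82 or 120 without jejunal library 2, 3 or 4, 319 or 330 without ileal library 1 or 4, and 334 without ceco-colonic library 4. Without duodenal libraries 2 and 3 the trend count was 2187. Over the 3 small intestinal positions alone, a slope was called in 3394 genes (11.7%; 6.64% higher and 5.09% lower), but in 745 and 1665 without those pairs of duodenal libraries, 1503 without duodenal library 2, and 1801 or 1588 without ileal library 3 or 4.

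Genes with a called slope were then sorted by which steps were called in its direction. Only 2 genes (0.00691% of those tested) passed at all 3 steps, Hoxa9 and Hoxc9, and both rose. A further 27 passed at 2 steps (0.0933%). The change was called at the ceco-colonic end alone for 1374 genes (4.75%; 676 higher and 698 lower) and at the duodenal end alone for 229 genes (0.791%; 67 higher and 162 lower). It was called at the middle step alone for 4 genes (0.0138%). In 59 genes (0.204%) a step was called against the slope, and in 2631 (9.09%) no single step passed. A step that misses the threshold does not show that a gene was level there. For 839 of the 1374 ceco-colonic genes the 95% intervals of both other steps lay within 1.5-fold of no change, and the same held for 65 of the 229 duodenal genes and all 4 middle-step genes. By the means alone, 2189 of the 4326 genes moved one way at every step, and in 510 of these each step held at least 20% of the range. A test of departure from a straight line passed in 936 of the 4326 (21.6%), against 8.42% of all genes tested.

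**Figure D2:**
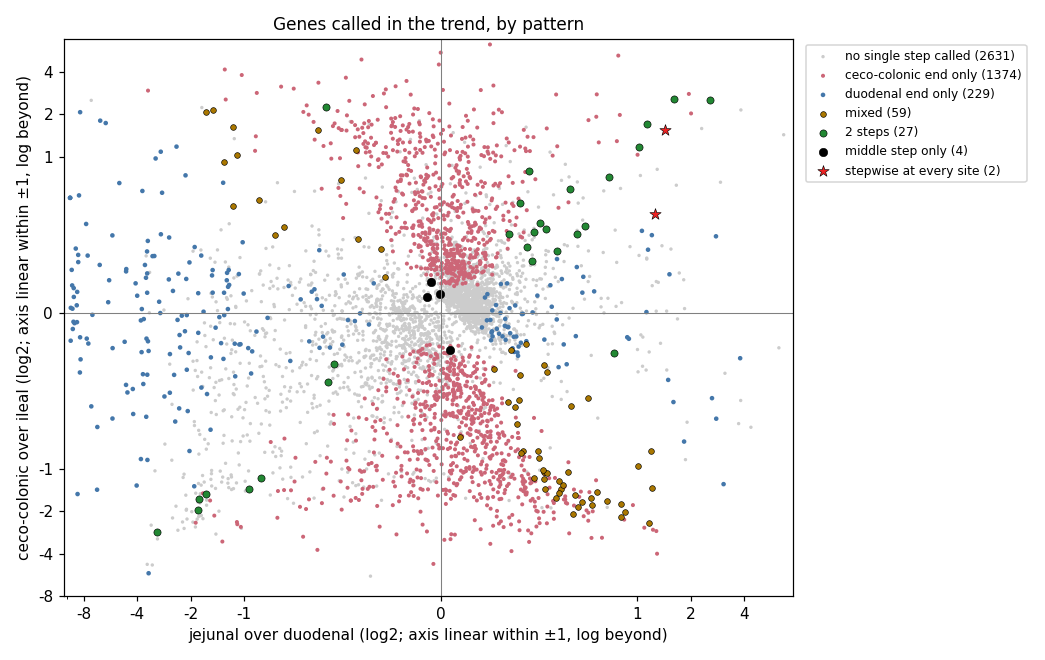
Log2 change from jejunal over duodenal (x) and ceco-colonic over ileal nodes (y) for the 4326 genes with a called slope, coloured by which steps passed; both axes are linear within ±1 and logarithmic beyond. The 2 stepwise genes sit at upper right, the 1374 ceco-colonic genes spread along the vertical axis and the 229 duodenal genes along the horizontal one.

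Hoxa9 and Hoxc9, transcription factors of the ninth paralog group that pattern the trunk and limb mesenchyme, rose at every site. Hoxa9 had 0.290, 0.448, 0.388 and 0.410 CPM in duodenal, 0.904, 0.942, 1.3 and 1.006 CPM in jejunal, 1.99, 1.91, 2.02 and 1.64 CPM in ileal and 5.54, 6.02, 4.87 and 5.69 CPM in ceco-colonic libraries. No library of one position overlapped the next. Its slope was 1.24 ± 0.0488 (SE; adjusted p = 3.26e-10), with 37.2%, 22.5% and 40.3% of the range in the 3 steps in order. Hoxc9 had 0.528, 0.702, 0.743 and 0.646 CPM in duodenal, 1.43, 1.68, 1.53 and 1.64 CPM in jejunal, 3.72, 3.31, 2.52 and 3.73 CPM in ileal and 5.40, 5.08, 4.90 and 5.20 CPM in ceco-colonic libraries, again without overlap. Its slope was 1.0 ± 0.0438 (SE; adjusted p = 5.97e-10), and its steps held 42.2%, 36.5% and 21.3% of the range. The inguinal nodes stood elsewhere for each gene: Hoxa9 averaged 2.37 ± 0.446 CPM there (SD, n = 4), between the ileal and ceco-colonic levels, and Hoxc9 6.54 ± 0.433 CPM, above every gut library. Hoxc9 kept its call at all 3 steps in each of the 16 fits that left out 1 library. Hoxa9 kept it in 5 of the 16 and lost it in 11 (without duodenal library 3, jejunal 1, 2 or 4, any ileal library, or ceco-colonic 1, 2 or 4), where a step no longer passed. Hoxa9 also lost it without duodenal libraries 2 and 3, and with counts summed from transcripts. In both of these fits Hoxc10 passed at all 3 steps in its place.

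The tenth paralogs of the same clusters were steeper. Hoxc10 was at 0 to 0.0709 CPM in duodenal, 0.0753 to 0.267 CPM in jejunal and 0.546 to 1.51 CPM in ileal libraries, and at 6.65, 7.39, 6.36 and 6.36 CPM in ceco-colonic ones. Its slope was 2.70 ± 0.181 (SE; adjusted p = 7.49e-08), and the first step fell just short of the threshold (adjusted p = 0.0508), where duodenal counts are near 0. Hoxa10 had means of 0.0954, 0.295, 0.623 and 3.66 CPM from duodenal to ceco-colonic nodes, with a slope of 1.68 ± 0.0704 (SE; adjusted p = 4.53e-10); its middle step missed the threshold (adjusted p = 0.0797). Neither gene had a library that overlapped the next position. Per transcript length, the 4 genes had, in ceco-colonic nodes, mean TPM (transcripts per M) of 5.20 for Hoxa9, 3.83 for Hoxc9, 5.28 for Hoxc10 and 3.0 for Hoxa10. In duodenal nodes the same means were 0.349, 0.470, 0.0188 and 0.0763 TPM.

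**Figure D3:**
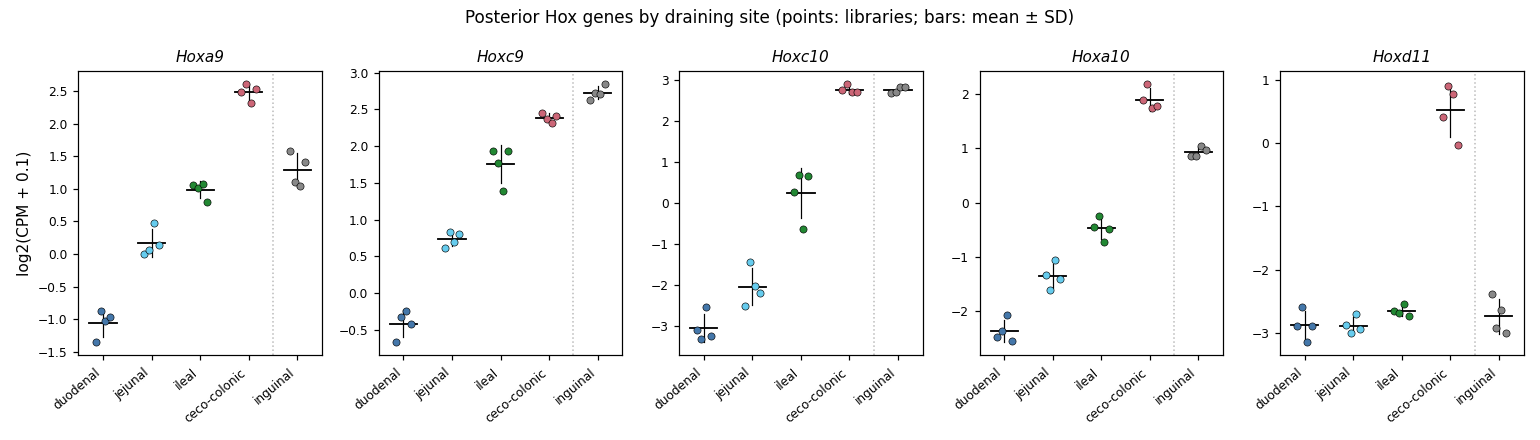
Level of 5 posterior Hox genes as log2(CPM + 0.1) in each library by draining site, inguinal nodes last; points are libraries, bars are mean ± SD over 4 libraries. Hoxa9, Hoxc9, Hoxc10 and Hoxa10 climb at every site without overlap between neighbours, and Hoxd11 is high in ceco-colonic libraries alone.

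Hoxd11, a tail-ward gene of the HoxD cluster, was picked after its values were seen as a contrast: its slope of 1.64 was called, and of its 3 steps the last one alone passed. It had 1.24, 1.78, 1.62 and 0.880 CPM in ceco-colonic libraries, against 0.0505 to 0.0714 CPM in ileal libraries. Its ceco-colonic over ileal step was 4.52 ± 0.325 (log2, SE; adjusted p = 4.41e-07), and it averaged 0.0521 CPM in inguinal nodes. The genes lie in 3 clusters. By GENCODE M21 on GRCm38, all are protein coding: Hoxa9 at chr6:52223100-52231089 and Hoxa10 at chr6:52231197-52240854, both on the minus strand, Hoxc9 at chr15:102976439-102985099, Hoxc10 at chr15:102966796-102971893 and Hoxd11 at chr2:74679557-74687016, all 3 on the plus strand. The RefSeq promoter table (GRCm38.p6; 250 bases before and 50 after the start site) held 3 of the 5 genes, and these windows are shown because the 2 HoxA genes rose along the whole order while Hoxd11 changed at its colonic end. The windows are chr6:52227321-52227620 (minus strand) for Hoxa9, chr6:52240805-52241104 (minus strand) for Hoxa10 and chr2:74679308-74679607 (plus strand) for Hoxd11, written 5' to 3'; the Hoxa9 window lies inside the longer GENCODE locus.
Hoxa9: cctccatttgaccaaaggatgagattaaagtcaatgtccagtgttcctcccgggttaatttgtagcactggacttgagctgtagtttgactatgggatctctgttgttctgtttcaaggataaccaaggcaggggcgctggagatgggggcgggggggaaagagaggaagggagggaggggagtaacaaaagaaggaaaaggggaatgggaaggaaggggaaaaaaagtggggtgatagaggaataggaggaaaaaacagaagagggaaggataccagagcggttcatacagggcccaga
Hoxa10: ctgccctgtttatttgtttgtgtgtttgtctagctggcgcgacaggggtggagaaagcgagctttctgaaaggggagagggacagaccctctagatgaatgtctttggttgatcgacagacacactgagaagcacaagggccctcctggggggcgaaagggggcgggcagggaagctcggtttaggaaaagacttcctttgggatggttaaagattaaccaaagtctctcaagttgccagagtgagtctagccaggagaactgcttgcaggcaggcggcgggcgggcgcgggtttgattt
Hoxd11: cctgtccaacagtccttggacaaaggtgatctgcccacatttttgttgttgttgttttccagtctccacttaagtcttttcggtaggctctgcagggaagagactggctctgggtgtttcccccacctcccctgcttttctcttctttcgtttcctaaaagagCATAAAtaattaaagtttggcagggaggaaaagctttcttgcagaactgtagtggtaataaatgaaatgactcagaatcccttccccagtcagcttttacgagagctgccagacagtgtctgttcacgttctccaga
Both strands were searched for TTTATG (the site of CDX factors, caudal-type regulators of Hox genes), TGATTNAT (a PBX-HOX site), TGACAG (a MEIS site) and TATAAA (the TATA box). The share of all 32851 promoters of this length with a match is 11.9%, 3.22%, 19.2% and 13.6%, in that order. The only match was 1 TTTATG on the minus strand of the Hoxd11 window, 87 bases before the start, shown in capitals as its complement CATAAA. A match is a description of letters, and its absence says only that these letters are not in this window.

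Hox genes of high paralog number rose, while those of low number went both ways. Of 39 Hox genes, 31 passed the filter on low counts; the 8 that did not (Hoxa13, Hoxb13, Hoxc11, Hoxc12, Hoxc13, Hoxd1, Hoxd12 and Hoxd13) were at most 0.0583 CPM in any gut library. Of the 31, 13 rose and 6 fell, with a median slope of 0.055 against -0.006 over all genes. Across all genes tested, 7.81% rose and 7.14% fell. All 9 tested members of paralog groups 9 to 13 rose, with slopes of 0.24 (Hoxb9) to 2.70 (Hoxc10). In groups 6 to 8, 2 rose and 1 fell of 8, and in groups 1 to 5, 2 rose and 5 fell of 14. Slopes in the anterior groups ran from -0.45 (Hoxa4) to 0.52 (Hoxd3). In HoxA no gene below the ninth rose, and in HoxC one of them did (Hoxc6, 0.22); the neighbours of the ninth genes, Hoxa7 (0.06) and Hoxc8 (-0.05), had no called slope. In HoxB the ninth gene alone rose. HoxD did not split this way: all 6 of its tested genes rose, with slopes of 0.52 for Hoxd3, 0.23 for Hoxd4, 0.19 for Hoxd8, 0.31 for Hoxd9, 0.34 for Hoxd10 and 1.64 for Hoxd11. Counts of slopes over the family moved little without duodenal libraries 1 and 2 (11 rose and 6 fell of 32) or without libraries 2 and 3 (14 rose and 4 fell of 32). Calls at the first step moved more. Jejunal over duodenal, 7 were higher and 2 lower (0.954% and 0.784% of all genes). Without duodenal libraries 1 and 2, 2 were higher and none lower, and without libraries 2 and 3, 8 were higher and none lower.

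**Figure D4:**
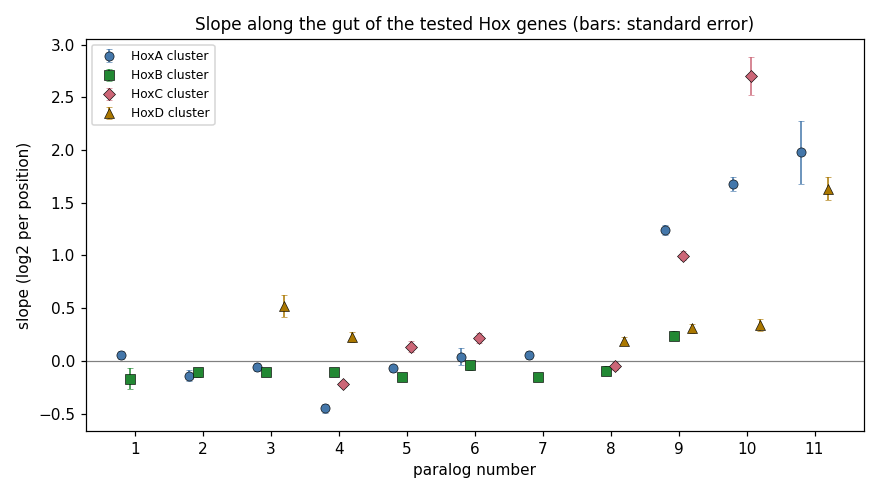
Slope along the gut (log2 per position, ± SE) of the 31 tested Hox genes against paralog number, by cluster. Slopes lie between -0.45 and 0.52 up to group 8 and reach 1.24 or more for Hoxa9, Hoxa10, Hoxa11, Hoxc10 and Hoxd11.

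Hox genes were not alone in keeping every library in order. In 13 genes (0.0449% of those tested) the 4 libraries of each position lay wholly beyond those of the position before; 10 rose and 3 fell. Besides the 4 Hox genes the rising ones were Tcf25, Fuz (a planar polarity and cilium gene), Ms4a8a, Ddah1 (which degrades inhibitors of nitric oxide synthesis), Gal3st2 (a galactose sulfotransferase) and Map6d1. Tcf25 was the highest of these in counts, with means of 225, 248, 275 and 327 CPM, and rose by 0.18 ± 0.0184 per position (SE; adjusted p = 7.07e-06). Gal3st2 had means of 16, 21.2, 25.8 and 41.9 CPM with a slope of 0.44 ± 0.0276 (SE; adjusted p = 3.19e-08). Ms4a8a, a tetraspan membrane gene of myeloid and epithelial cells, averaged 2.40, 3.05, 5.22 and 7.40 CPM. Tafa5, a secreted chemokine-like factor, fell from site to site, with means of 3.22, 1.99, 1.24 and 0.150 CPM, as did Sox9, with 1.93, 1.33, 0.838 and 0.510 CPM. The B cell gene Ms4a1 (encoding CD20) fell too, with libraries of 3.42 to 4.19 CPM in duodenal, 2.62 to 3.12 CPM in jejunal, 1.68 to 2.02 CPM in ileal and 1.08 to 1.62 CPM in ceco-colonic nodes and a slope of -0.51 ± 0.0400 (SE; adjusted p = 4.32e-07). Its steps were near even, yet none passed alone. In whole-node RNA, fewer cells of a type and less RNA per cell cannot be told apart.

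Among the 27 genes called at 2 steps, 19 rose and 8 fell. Without duodenal libraries 1 and 2, 5 of the 27 kept this class, and 8 did without libraries 2 and 3. Their slopes held better, with 27 and 26 still called in these fits. Those named here were chosen after their values were seen unless they also met the rule for named genes. Coch, a matrix gene of follicular and marginal reticular cells, changed at the first and middle steps: it averaged 4.01, 7.38, 28.6 and 23.9 CPM, with an ileal over jejunal step of 1.95 ± 0.183 (log2, SE; adjusted p = 0.000232) and no overlap between the libraries of the first 3 positions. The first step of Coch was not called without duodenal libraries 1 and 2, nor without libraries 2 and 3. Irx1, a regional homeobox gene, changed at the middle and last steps, with 0.494, 0.485, 0.713 and 0.721 CPM in duodenal, 0.439, 0.238, 0.309 and 0.641 CPM in jejunal, 1.41, 1.90, 0.918 and 1.05 CPM in ileal and 6.04, 5.37, 7.58 and 6.17 CPM in ceco-colonic libraries. Its duodenal and jejunal libraries overlapped, and the later positions did not. Most of the others changed at both ends and little between. Thbs2, a matricellular thrombospondin, averaged 26.1, 35.7, 40.9 and 76.5 CPM, Vdr, the vitamin D receptor, 5.49, 7.77, 8.29 and 12.4 CPM, and Tnfsf4, the OX40 ligand, 1.38, 3.04, 3.77 and 12.4 CPM. Of the falling genes, Tdrd9 averaged 5.52, 2.81, 1.83 and 0.703 CPM, and Isl1, a homeobox gene of foregut mesenchyme and neurons, 1.38, 0.391, 0.229 and 0.0565 CPM. Isl1 was highest in the duodenal libraries rich in smooth muscle and glial genes (1.44 and 2.45 CPM in libraries 2 and 3, 0.619 and 1.006 CPM in libraries 1 and 4); the part of these tissues was not tested.

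Among genes called at the ceco-colonic end alone, the largest rises by the rule for named genes were those of Ccl8, Mmp3, P4ha3 and Pla2g5. These genes were at 5 CPM or more, and their ceco-colonic libraries did not overlap the other 12. Some genes at lower levels, Hoxd11 among them, had larger steps. Hoxc10 and Irx1, called at 2 steps, had last steps of 2.54 and 2.25 (log2), above P4ha3 (2.20) and Pla2g5 (2.08). Ccl8, a monocyte and eosinophil chemoattractant, had 42.0, 52.1, 22.2 and 49.2 CPM in ceco-colonic libraries, against 3.43, 5.64, 2.71 and 6.18 CPM in ileal ones, and 1.67 to 3.16 CPM in the 8 libraries further up. All 4 ceco-colonic libraries lay above all 12 others of the gut, and the step was 3.20 ± 0.295 (log2, SE; adjusted p = 2.84e-06). Inguinal nodes were higher still, at 239 ± 38.5 CPM (SD, n = 4). Mmp3, the matrix protease stromelysin-1, had 101, 140, 73.0 and 96.3 CPM in ceco-colonic libraries, against 7.35, 25.9, 8.28 and 10.5 CPM in ileal ones, a step of 2.98 ± 0.371 (log2, SE; adjusted p = 4.8e-05). Inguinal nodes averaged 25.2 ± 7.09 CPM (SD, n = 4), below every ceco-colonic library. P4ha3, a collagen prolyl hydroxylase, averaged 5.68 ± 0.360 CPM in ceco-colonic and 1.24 ± 0.143 CPM in ileal nodes, and Pla2g5, a secreted phospholipase, 11.7 ± 0.910 and 2.76 ± 0.438 CPM (SD, n = 4 each). Pla2g5 ran slightly the other way from duodenal to ileal nodes, with a slope of -0.27 over those 3 positions that did not pass (adjusted p = 0.105).

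Among genes called at the ceco-colonic end alone, Col6a6, Zim1, Agt and Cyp2e1 had the largest falls there by the rule for named genes. Each had at least 5 CPM at its highest position and ceco-colonic libraries that did not overlap the other 12. Col6a6, a collagen VI chain, had 2.46, 1.77, 2.40 and 1.97 CPM in ceco-colonic libraries, against 30.9, 23.0, 32.2 and 37.3 CPM in ileal ones, and 20.2 to 46.4 CPM in duodenal and jejunal libraries. The groups did not overlap, the step was -3.84 ± 0.216 (log2, SE; adjusted p = 9.88e-08), and inguinal nodes, at 37.5 ± 2.42 CPM (SD, n = 4), lay within the range of the small intestinal ones. Postn, the matricellular protein periostin, averaged 122 ± 5.32 CPM in ceco-colonic and 355 ± 22.2 CPM in ileal nodes (SD, n = 4 each), with no library of the upper 3 positions under 299 CPM. Zim1, an imprinted zinc finger gene, averaged 0.480 and 4.11 CPM in these nodes. Agt (angiotensinogen, 0.990 and 6.49 CPM) and Cyp2e1 (a cytochrome P450 of liver and fat, 20.8 and 127 CPM) are also made by adipocytes. Both were highest in jejunal library 2, where adipocyte genes summed to 3506 CPM. Among gut libraries Zim1 (8.21 CPM) and Col6a6 (46.4 CPM) were highest there too. Without duodenal libraries 2 and 3 the slopes of Agt and Cyp2e1 kept direction but not the call. They were -0.36 in place of -0.62 for Agt (adjusted p = 0.222) and -0.42 in place of -0.56 for Cyp2e1 (adjusted p = 0.142). The count of ceco-colonic end genes was 491 with the adipocyte level as a covariate, which varies with position, and the part of fat in it cannot be told apart from position.

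**Figure D5:**
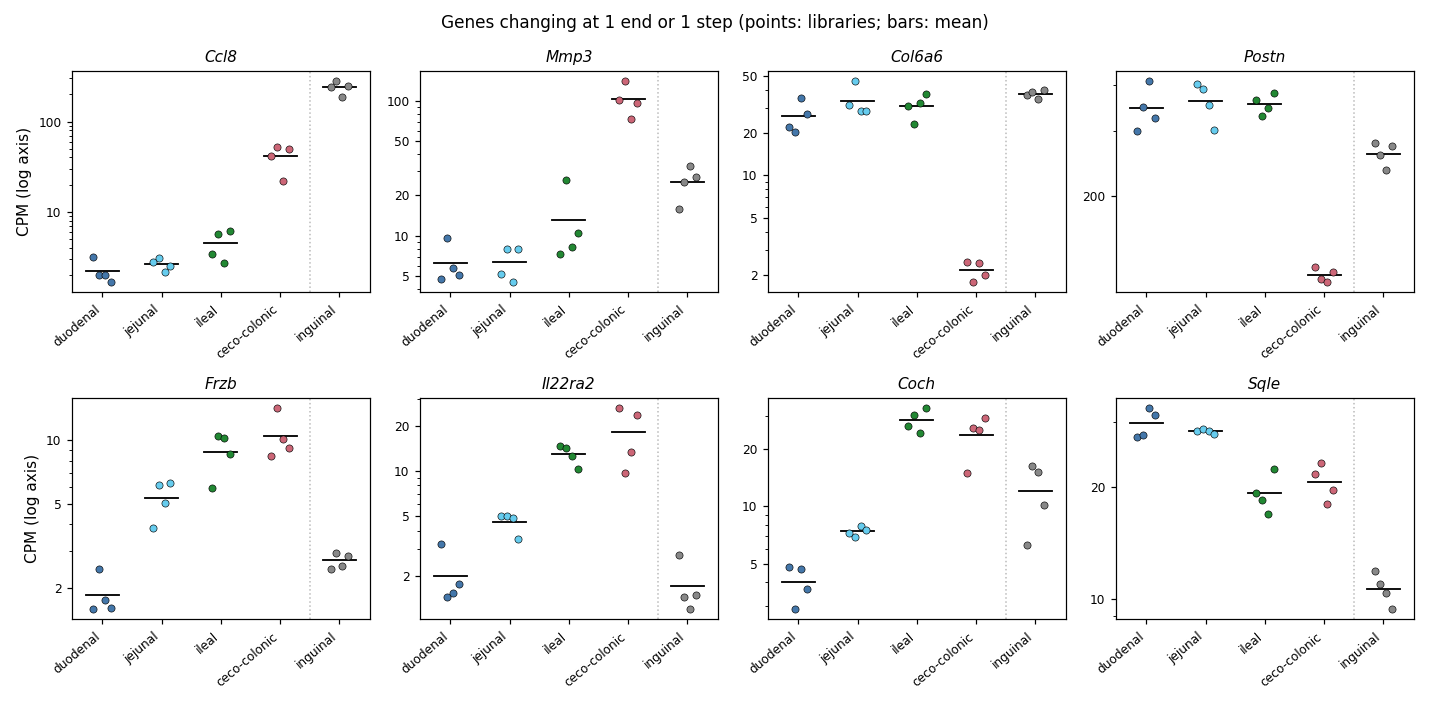
CPM (log axis) of 8 genes in each library by draining site, inguinal nodes last; points are libraries and bars are means. Ccl8 and Mmp3 are high and Col6a6 and Postn low in all 4 ceco-colonic libraries; among gut nodes Frzb and Il22ra2 have their lowest means in duodenal ones, and the inguinal mean of Il22ra2 (1.72 CPM) is below the duodenal mean (2.0 CPM); Coch steps up and Sqle steps down between jejunal and ileal nodes.

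Frzb and Sfrp4, secreted inhibitors of WNT signalling, had their lowest gut levels in duodenal nodes. Frzb had 3.83, 6.10, 5.02 and 6.26 CPM in jejunal libraries, against 1.58, 2.45, 1.76 and 1.61 CPM in duodenal ones, a step of 1.52 ± 0.216 (log2, SE; adjusted p = 0.0056). Its mean was 5.31 CPM in jejunal, 8.81 CPM in ileal and 10.5 CPM in ceco-colonic nodes, with libraries of the last 2 positions at 5.91 to 14.2 CPM. Sfrp4 had 11.4 to 16.5 CPM in jejunal and 6.87 to 7.24 CPM in duodenal libraries. Il22ra2, the decoy receptor for interleukin 22, had 5.02, 5.04, 4.82 and 3.5 CPM in jejunal libraries, against 3.26, 1.45, 1.53 and 1.76 CPM in duodenal ones (step 1.21 ± 0.293, log2, SE; adjusted p = 0.0471), and means of 12.9 and 18.2 CPM in ileal and ceco-colonic nodes. Il22 itself, the cytokine of type 3 innate lymphoid cells, averaged 1.77 ± 1.35 CPM in jejunal nodes and 0.129 ± 0.141 CPM in duodenal nodes (SD, n = 4 each; step 3.80, adjusted p = 0.0145), with no overlap between their libraries. The step of Il22 was not called without duodenal libraries 1 and 2, nor without libraries 2 and 3. Selp, the platelet and endothelial adhesion receptor P-selectin, averaged 13.8 CPM in jejunal and 8.33 CPM in duodenal nodes, but its slope of 0.19 did not pass without ceco-colonic library 2 (adjusted p = 0.0724), ceco-colonic library 4 (0.0791), duodenal libraries 1 and 2 (0.133) or duodenal libraries 2 and 3 (0.0817).

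Falling genes at the duodenal end were in part those of the pancreas. All 17 tested pancreatic genes had a called slope, but 0 of them had by limma-voom. Of the 162 falling genes at this end, 54 were at least 10 times higher in both duodenal libraries 1 and 2 than in libraries 3 and 4. Cpa1, a pancreatic carboxypeptidase, had 1956, 1124, 0.409 and 0.951 CPM among duodenal nodes and at most 6.45 CPM elsewhere; without duodenal libraries 1 and 2 its slope of -0.96 did not pass (adjusted p = 0.116), and 1 of the 17 genes still fell. Klk1, a kallikrein protease, stood at 424 and 313 CPM in the same 2 libraries, against 14.9 and 15.6 CPM in the others, and its slope did not pass without them (adjusted p = 0.0539). Mylk4, a myosin kinase, followed duodenal libraries 2 and 3 instead (14 and 16.7 CPM, against 0.744 and 0.646 CPM in libraries 1 and 4), as did the smooth muscle gene Cnn1 (35.1 and 36.8 against 0.437 and 4.35 CPM), whose slope did not pass without them (adjusted p = 0.0759). P2rx1, an ATP-gated channel of smooth muscle and platelets, was at 4.39 to 14.9 CPM in the 4 duodenal libraries and at most 2.42 CPM further down. Without libraries 2 and 3 the slopes of both kept their call but were smaller, at -0.22 in place of -1.28 for Mylk4 and -0.34 in place of -0.64 for P2rx1. By limma-voom the slopes of Mylk4 (adjusted p = 0.0823) and Klk1 (adjusted p = 0.0665) did not pass. Bc1, a neuronal noncoding RNA, had 81.3, 85.9, 86.2 and 48.3 CPM in duodenal libraries, against 21.1 to 40.9 CPM in jejunal ones (jejunal over duodenal -1.25 ± 0.247, log2, SE; adjusted p = 0.0258). The duodenal-end count of 229 was 48 without libraries 1 and 2, 117 without libraries 2 and 3, and 17 without library 2 alone. It was also 35, 29 and 38 without jejunal library 2, 3 or 4.

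The middle step alone was called in 4 genes, and 2 of them, Sqle and Stard4, belong to cholesterol metabolism. Sqle, the squalene epoxidase of cholesterol synthesis, had 19.3, 18.5, 17 and 22.4 CPM in ileal libraries, against 28.3, 28.8, 28.3 and 27.9 CPM in jejunal ones. Duodenal libraries lay at 27.4 to 32.7 CPM and ceco-colonic libraries at 18.1 to 23.3 CPM. The step was -0.55 ± 0.0904 (log2, SE; adjusted p = 0.0338). Stard4, a sterol transfer protein, averaged 28.5 ± 1.23 CPM in ileal and 38.5 ± 2.99 CPM in jejunal nodes (SD, n = 4 each), a step of -0.43 ± 0.0625 (log2, SE; adjusted p = 0.0174). The libraries of these positions did not overlap in either gene. Of 16 sterol synthesis genes, 8 fell along the gut and none rose, with a median slope of -0.089, while 7.14% of all genes tested fell and 21.2% of genes at 5 CPM or more had a called slope; Hmgcs1, Insig1, Cyp51, Msmo1 and Sqle were among those that fell. The count was 7 without duodenal libraries 1 and 2 and 4 without libraries 2 and 3.

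Across all genes tested 7.14% fell and 7.81% rose along the gut, and of those at 5 CPM or more at their highest position 21.2% had a called slope in either direction. Of 25 WNT and BMP ligands and modulators, 12 fell and 3 rose (Sfrp4, Bmp2 and Bmp5), with a median slope of -0.111; 11 fell without duodenal libraries 1 and 2 and 9 without libraries 2 and 3. Rspo3, the R-spondin that amplifies WNT signals, had 11.4 to 14.9 CPM in duodenal, 9.53 to 12 CPM in jejunal, 7.27 to 8.74 CPM in ileal and 4.04 to 4.38 CPM in ceco-colonic libraries, with a slope of -0.52 ± 0.0308 (SE; adjusted p = 2.67e-08). Of 20 fibroblast and matrix genes 6 fell and none rose, and of 12 medullary reticular genes 6 fell, among them Vegfd, a lymphatic growth factor, and Inmt, a methyltransferase, and 1 rose; 3 of the 12 fell without duodenal libraries 2 and 3. Of 21 retinoid genes 6 fell and 1 rose. Aldh1a1, which makes retinoic acid, averaged 24.3, 16.7, 13.3 and 4.55 CPM (slope -0.76 ± 0.0844, SE; adjusted p = 1.38e-05), and Dhrs3, which reduces retinal, 73.7, 83.5, 79.6 and 43.5 CPM. Aldh1a2, the retinoic acid enzyme of mesenteric stroma and dendritic cells, showed no called slope, with means of 144, 169, 216 and 168 CPM at the 4 gut positions and 19.1 CPM in inguinal nodes (slope 0.10 ± 0.0469, SE; adjusted p = 0.17). It passed with a replicate block (adjusted p = 0.00379) and over the 3 small intestinal positions alone (slope 0.29, adjusted p = 0.0207). Among T-zone reticular genes, Grem1, a BMP antagonist of reticular cells, had 192, 192, 162 and 154 CPM in ceco-colonic libraries, against 66.7 to 88.7 CPM in ileal ones (step 1.18 ± 0.170, log2, SE; adjusted p = 0.000175), and Tnfsf13b, the survival factor BAFF, averaged 78.4 and 44.9 CPM in these nodes. Of 10 T-zone genes 5 were higher in ceco-colonic than in ileal nodes (4.83% of all genes were), and 1 when the adipocyte level entered as a covariate.

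Regional transcription factors outside the Hox family fell in 9 of 29 (7.14% of all genes fell) and rose in 3 (Lhx2, Tbx18 and Twist1), with 4 falling without duodenal libraries 2 and 3. Nkx2-3, the homeobox gene that marks gut-draining stroma and endothelium, did not: it had means of 21.3, 21.4, 21.7 and 22 CPM at the 4 sites, with a slope of 0.02 ± 0.0261 (SE; adjusted p = 0.729), and 0.0339 CPM in inguinal nodes. Its target Madcam1, the mucosal addressin, was at 119, 144, 135 and 110 CPM in ceco-colonic libraries, against 53.1 to 74.3 CPM in ileal ones (step 0.99 ± 0.199, log2, SE; adjusted p = 0.0031). Duodenal libraries ranged from 47.0 to 102 CPM, so the slope of 0.29 rested on the last step and did not pass without duodenal libraries 2 and 3 (adjusted p = 0.0565).

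Haematopoietic lists are read against all genes, of which 7.81% rose and 7.14% fell (21.2% called either way at 5 CPM or more). Natural killer genes rose in 6 of 13 and fell in none, with 4 rising without duodenal libraries 1 and 2 and 2 without libraries 2 and 3. Ccl5, a chemokine of killer and innate lymphoid cells, averaged 462, 528, 626 and 853 CPM (slope 0.29 ± 0.0359, SE; adjusted p = 3.83e-05), and Eomes 32.3, 29.6, 36.5 and 44.8 CPM. Dendritic cell genes rose in 9 of 16, among them Clec10a and Irf4 of type 2 conventional cells, and fell in 3 (Xcr1, Clec9a and Cd8a, all of type 1 cells); 6 rose without either pair of duodenal libraries. Clec10a averaged 52.7 ± 2.22 CPM in ceco-colonic and 31.4 ± 2.22 CPM in ileal nodes, and Irf4 48.4 ± 4.05 and 27.7 ± 3.72 CPM (SD, n = 4 each). Genes of type 2 innate lymphoid cells fell in 7 of 12 and rose in 1; 5 fell and none rose without duodenal libraries 1 and 2, and 3 fell with the pancreatic covariate. Il17rb, the interleukin 25 receptor, had 28.4, 23.5, 24.1 and 29.1 CPM in ceco-colonic libraries, against 52.7 to 68.1 CPM in ileal ones, and Arg1 averaged 12.5, 9.42, 8.06 and 3.5 CPM. Of 23 chemokine genes 9 rose and 4 fell (2 fell without duodenal libraries 1 and 2 or with the pancreatic covariate). Cx3cl1, which draws monocytes and killer cells, had 64.4, 65.6, 72.8 and 68.8 CPM in ceco-colonic libraries, against 30.1 to 36.8 CPM in ileal ones (slope 0.47 ± 0.0267, SE; adjusted p = 1.62e-08). Eosinophil and neutrophil genes rose in 4 of 13 over the order (2 without duodenal libraries 2 and 3), and 10 of 13 were higher in ceco-colonic than in ileal nodes (4.83% of all genes were), though 1 with the adipocyte covariate; Prg2, the eosinophil major basic protein, averaged 3.75 ± 0.838 and 0.865 ± 0.158 CPM there (SD, n = 4 each).

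Some genes, with or without a called slope, were highest or lowest in the middle of the order. The first and last steps share no library. Jejunal over duodenal was called higher and ceco-colonic over ileal lower in 165 genes, the reverse in 31, and both steps the same way in 25. Cd163, a scavenger receptor of resident macrophages, had means of 17.3, 38.7, 22.3 and 4.13 CPM, and Cyp1b1, a cytochrome P450 induced through the aryl hydrocarbon receptor, 198, 297, 297 and 97.7 CPM. Cyp1b1 was at 259 to 327 CPM in jejunal and 170 to 236 CPM in duodenal libraries (step 0.58, adjusted p = 0.0258), and at 89.4 to 107 CPM in ceco-colonic and 234 to 336 CPM in ileal libraries (step -1.61, adjusted p = 5.17e-07). The first of these steps was not called without duodenal libraries 1 and 2. Of 17 lymphatic and sinus genes, 5 were higher in jejunal than in duodenal nodes (0.954% of all genes tested were) and 12 lower in ceco-colonic than in ileal nodes (6.3% of all genes); 2 of the 17 had a called slope with a step called against it. Macrophage genes were higher at the first step in 7 of 15 and lower at the last in 6 (1 with the adipocyte covariate); the first count was 0 without duodenal libraries 1 and 2 and 3 without libraries 2 and 3. Adipocyte genes were high in jejunal and ileal nodes, the middle of the order. That level varies with position, so a fit with it as a covariate cannot tell fat apart from position. The part of fat was not tested. With the adipocyte level as a covariate, the rise and fall was called in 5 genes in place of 165, and the lymphatic counts were 0 and 6; without duodenal libraries 1 and 2, it was called in 3 genes, and the lymphatic counts were 0 and 12. Without duodenal libraries 2 and 3 it was called in 182 genes, and the lymphatic counts were 6 and 12. Cxcl13, the B cell follicle chemokine, dipped instead, with 48.5, 27.3, 41.4 and 25.3 CPM in duodenal, 19.5, 4.60, 12.3 and 9.06 CPM in jejunal, 17.1, 18.9, 17.2 and 13.3 CPM in ileal and 53.1, 83.4, 64.9 and 77.2 CPM in ceco-colonic libraries. Its slope of 0.35 (adjusted p = 0.0255) did not pass without duodenal library 2 (0.0843) or 4 (0.0668), ceco-colonic library 2 (0.07) or 4 (0.0665), or either pair of duodenal libraries (0.0768 without 1 and 2, 0.138 without 2 and 3). Of 15 type I interferon response genes none had a called slope, and 11 were lower in ceco-colonic than in ileal nodes. Among them were Irf7 (484 and 854 CPM) and Isg15 (83.7 and 159 CPM). Summed over the list, ileal libraries ran from 1896 to 3819 CPM and ceco-colonic ones from 1368 to 2043 CPM, so the sites overlapped. None of the 15 was called at the ceco-colonic over ileal step once the adipocyte covariate was added.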

How the data were processed

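Bulk polyA RNA-seq libraries of whole lymph nodes were analysed from the gene-level estimated counts deposited by the authors, together with the TPM values that the authors deposited beside them. The submitters' processing notes name kallisto, limma and edgeR and the builds GRCm39 and mm10, without roles. Among genes with at least 500 counts in every library, 99.7% of values in the gene table matched length-scaled transcript values within 0.001 log2. Plain transcript sums matched in 3.36% of values, so the estimated counts as deposited are length-scaled. They were rounded to whole numbers, filtered by position (minimum count 10, minimum total 15; 28943 genes) and scaled by TMM in edgeR 4.0.16 (R 4.3.3). Total estimated counts were 171.1 to 304.6 M in gut and 148.2 to 294.2 M in inguinal libraries, and no sample was left out or imputed.

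A quasi-likelihood fit with 1 mean per position over the 16 gut libraries gave the slope, the 3 steps and the departure from a line, adjusted by Benjamini-Hochberg over all genes tested. The scripts were tested on simulated data. Every adjusted p is from this fit unless another is named. Alternatives used DESeq2 1.42.0, limma 3.58.1, other scalings and filters, left-out libraries, covariates and a replicate block.

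Named genes were the largest changes of each pattern at 5 CPM or more whose libraries did not overlap at an end pattern, up to 2 members per gene list and a fixed set; others are said to be chosen after their values were seen, or complete a short list. The members and lists were chosen with earlier results of these data known. The fit has no replicate block, since no label pairs same-numbered libraries. Values of some genes are not reported here.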

Additional observations from a re-analysis of the deposited data

Results flagged for a closer look

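In 9 of 157 groups of 4 libraries examined, 1 library lay far from the other 3 by Dixon's test at the 95% level, which chance gives in about 1 in 20 groups. Jejunal library 2, the richest in adipocyte genes, stood apart in Col6a6 (46.4 CPM, high), Grem1 (45.1 CPM, low) and Madcam1 (32.8 CPM, low). Jejunal library 1 stood high in the pancreatic gene Cpa1 (6.45 CPM) and jejunal library 4 low in Il22ra2 (3.5 CPM). Duodenal library 4 was low in Bc1 (48.3 CPM), and duodenal library 1 was high in Ccl5 (573 CPM). Ileal library 2 was low in Nkx2-3 (19.7 CPM) and ceco-colonic library 3 low in Gal3st2 (36.6 CPM).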

How the results depend on the processing

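Leaving out duodenal libraries 1 and 2, duodenal libraries 2 and 3, or adding the summed pancreatic level as a covariate gave 2669, 2187 and 2266 trend genes in place of 4326. The jejunal over duodenal count of 503 was 1395 by DESeq2, 227 by limma-voom, 831 with all 20 libraries in the fit, 66 without duodenal libraries 1 and 2 and 12 with the pancreatic covariate. The ileal over jejunal count of 11 was 86 by DESeq2, 20 with all 20 libraries and 7 without duodenal libraries 2 and 3. With the adipocyte covariate the ceco-colonic over ileal count of 3220 was 698 and the departure count of 2436 was 262. The slope over the 3 small intestinal sites, 3394 genes, was called in 745 and 1665 without the pairs of duodenal libraries, 913 with the adipocyte and 296 with the pancreatic covariate. The 2 stepwise genes were 8 by DESeq2, 4 with all 20 libraries, 5 at an adjusted p under 0.1, 1 under 0.01 and 510 by shares of the range. The 229 duodenal-end genes were 503 by DESeq2, 78 by limma-voom, 363 with all 20 libraries, 48 and 117 without the pairs of duodenal libraries, 8 with the pancreatic covariate, 476 and 8 at adjusted p under 0.1 and 0.01, and 84 by shares. The 1374 ceco-colonic genes were 491 with the adipocyte covariate, 754 at an adjusted p under 0.01 and 156 by shares. The causes were not tested.

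Leaving out 1 library gave 3097 to 4961 trend genes, 40 to 922 jejunal over duodenal, 2 to 18 ileal over jejunal, 2287 to 3620 ceco-colonic over ileal, 1503 to 3816 small intestinal slopes, 1734 to 2740 departures, 1 to 3 stepwise genes, 17 to 324 duodenal-end and 1018 to 1520 ceco-colonic genes.

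Deviations of same-numbered libraries had r of -0.0938 to 0.368 (24 pairs, median 0.089, 11 over 0.1), against a median of -0.0289 between different numbers, and 9 of 16 libraries correlated best with their own number. Not every pair was over 0.1 and no label gives a pairing, so the fit has no block; whether numbers mark a shared mouse is not known. With a replicate block, 5459 trend genes, 1056 jejunal over duodenal, 19 ileal over jejunal and 426 duodenal-end genes were called, and Aldh1a2 passed (adjusted p = 0.00379).

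Of 2879 slopes of named genes under alternatives, 2701 were counted as unchanged, 152 lost the call and 4 gained one. The unchanged ones include Aldh1a2, which had no call in the main fit, at -0.004 over the jejunal, ileal and ceco-colonic nodes. The other 22 were counted as a change of sign. Over the duodenal, jejunal and ileal nodes alone, slopes were -0.27 for Pla2g5, 0.12 for Col6a6, 0.17 for Zim1, 0.39 for Agt, 0.41 for Cyp2e1, 0.0556 for Dhrs3, 0.0522 for Inmt, 0.0185 for Postn, 0.13 for Reln, 0.18 for Cd163, -0.016 for Cxcr2, -0.39 for Prg2, 0.29 for Cyp1b1, 0.0685 for Gpm6a, -0.0768 for Madcam1 and -0.55 for Cxcl13. Over the jejunal, ileal and ceco-colonic nodes alone, they were -0.0028 for Selp, 0.45 for P2rx1, 0.29 for Krt18 and -1.08 for Adipoq. Krt18 was at 0.0726 without duodenal libraries 1 and 2 and at 0.19 with the pancreatic covariate.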
